A study of Mus musculus with 6 samples.

Results

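MHC class I antigen presentation was examined through 10 genes of a list drawn up by role in the pathway, with earlier results of these data known. They were the classical heavy chains H2-K1 and H2-D1, the light chain B2m, the peptide transporter and loading genes Tap1, Tap2 and Tapbp, the immunoproteasome subunits Psmb8, Psmb9 and Psmb10, and the transactivator Nlrc5. All 10 were found by their Ensembl identifiers among the 43629 genes that the count files list, and all 10 were among the 15470 genes with enough reads to be tested. RNA-Seq had been performed on ventricular cardiomyocytes that were isolated from CD-1 mouse embryos at embryonic day 13.5, with ventricles pooled by litter, and cultured for 48 h before transfection. Of the 6 cultures, 3 received 12 nM of a non-targeting negative siRNA and the other 3 received 12 nM of a pool of 4 siRNAs against DNMT1, the maintenance DNA methyltransferase, all by lipofection. Every culture was harvested 72 h later and enriched for cells that carry VCAM1 by magnetic sorting before RNA was isolated. CD-1 is an outbred strain, and the MHC haplotypes of these cultures are not given in the sources used here.

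MHC class I molecules display short peptides from the cell's own proteins to CD8+ T cells. The proteasome cuts proteins into peptides, the TAP transporter carries the peptides into the endoplasmic reticulum, tapasin (Tapbp) and other chaperones load them onto a heavy chain paired with beta-2 microglobulin (B2m), and the complex moves to the cell surface. Interferons raise most genes of this route, in part through NLRC5, which acts at class I promoters, and cells of the embryo and cardiomyocytes are known for low class I levels.

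Dnmt1 itself was measured first as a check of the labels. Its normalized count, the read count scaled to a common effective library size, fell from 3028 ± 367 with negative siRNA to 741 ± 65.8 with DNMT1 siRNA (SD, n = 3 each, edgeR FDR = 0.000192). Dnmt3a, which a treatment tag of the same 3 samples names in place of DNMT1, had 5453 ± 510 and 6425 ± 73.9. Between 27852412 and 35896018 reads lay on genes per negative siRNA culture, and between 13739561 and 16186310 per DNMT1 siRNA culture, so low counts carry more counting error with DNMT1 siRNA. In the genes described here the negative siRNA cultures differed, with replicate 2 lowest and replicate 3 highest for each of the 10, and results that rest on either are given with and without it. Nothing in the labels says that the cultures came from separate litters, so the p-values measure the spread between these cultures, which may be technical. In bulk RNA, fewer cells that express a gene and less RNA per cell cannot be told apart.

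The regulatory stretches of the heavy and light chain genes are shown because class I promoters are known for an NF-kB site next to an interferon response element, which make them responsive to cytokines. Promoter windows of 300 bases, 250 before and 50 after a RefSeq start, were present for 8 of the 10 genes in the RefSeq table (build GRCm38.p6), and Tap2 and Nlrc5 had none. Both strands were searched, and capitals below mark a 10-base NF-kB site, GGGGATTCCC, and AANNGAAA, the core of sites bound by interferon regulatory factors. In H2-K1 and H2-D1 the first capitals are the NF-kB site and the last ones the reverse complement of AANNGAAA. The stretches lie at chr17:34000430-34000458 (minus strand, H2-K1), chr17:35262923-35262951 (plus strand, H2-D1) and chr2:122147539-122147568 (plus strand, B2m), and each is written 5′ to 3′ on the strand of its gene.
H2-K1: GGGGATTCCCcatctccacagTTTCACTT
H2-D1: GGGGATTCCCcatctcctcagTTTCACTT
B2m: taagaacatgaAACTGAAAatgggaaagtc
The H2-K1 and H2-D1 stretches were identical at 28 of 29 bases. They begin 111 and 171 bases before the RefSeq starts, and the H2-D1 stretch lies inside the first exon of a longer H2-D1 transcript in the GENCODE annotation. The NF-kB site GGGGATTCCC was found in these 2 members and in 0.107% of all 32851 windows, whereas AANNGAAA was found in these 3 members and in 23.9% of all windows. The stricter interferon response element GAAANNGAAA, 2 copies of GAAA set 2 bases apart, was found in B2m alone among the 8 genes and in 3.44% of all windows, and its match there overlapped the AANNGAAA match. TTCNNNGAA, the gamma-activated site, matched in Psmb8 and in 8.3% of all windows. CCAAT matched in 6 of the 8 genes and TGACG, part of a CREB site, in 5 of them, against 37.4% and 20.8% of all windows. CpG dinucleotides numbered from 3 in Psmb10 to 19 in H2-D1, with a median of 7 over all windows (quartiles 3 and 20). The AANNGAAA core was added to the search after the windows had been seen. The search took the letters of GGGGATTCCC from the H2-K1 window and those of GAAANNGAAA from the B2m window, so the matches in those 2 genes are given by construction. These matches describe the reference sequence, and DNA methylation at them was not analysed here.

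The 10 genes were tested with edgeR's quasi-likelihood test and Benjamini-Hochberg adjustment over all 15470 genes, and a gene was called when its FDR was below 0.05 and its fold change above 1.5. Of the 10, H2-K1, H2-D1, Tap1 and Psmb8 were down-regulated by DNMT1 siRNA and 0 were up-regulated. Over all tested genes 2.23% were called lower and 4.26% higher. DESeq2 called 6 of the 10 lower, adding B2m, Tap2 and Psmb9 and losing H2-K1 (DESeq2 adjusted p = 0.0525), with 3.13% of all its tested genes called lower. EdgeR without the filter on low counts called 8, against 2.21%. That fit gave similar fold changes but mostly far smaller SEs, 0.09 against 0.33 for H2-K1 and 0.24 against 0.72 for Nlrc5. Psmb10 kept 0.14. The 8 calls therefore rest on a smaller estimate of the spread between cultures, and the cause was not tested. The other 6 in the filtered edgeR test had log2 fold changes between -1.74 and -0.42 and did not pass. The fitted log2 fold change was below 0 for 10 of 10 genes, against 50.7% of all tested genes, and the median was -1.22 against -0.00 over all tested genes. In 7 of the 10, each DNMT1 siRNA culture lay below each negative siRNA culture, against 17.7% of all tested genes. B2m, Tapbp and Nlrc5 were those that overlapped, each through negative siRNA replicate 2.

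**Figure D1:**
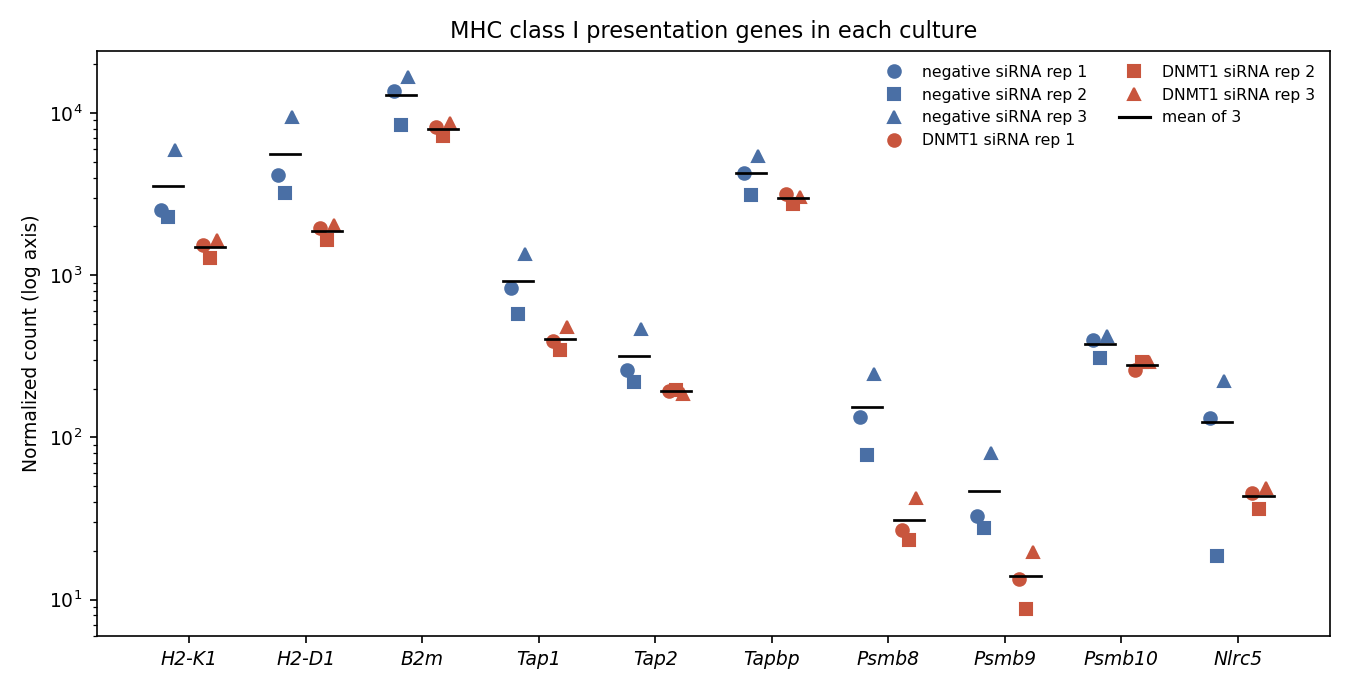
Normalized read counts (log axis) of the 10 class I presentation genes in each culture, with negative siRNA in blue, DNMT1 siRNA in red, the marker shape giving the replicate number and bars the mean of 3. Negative siRNA replicate 3 is the highest of the 6 cultures for every gene.

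H2-K1 (ENSMUSG00000061232, chromosome 17, 33996017 to 34000347, minus strand) encodes the K heavy chain that holds the peptide. Its normalized counts were 2508, 2291 and 5891 in negative siRNA replicates 1 to 3 and 1542, 1280 and 1650 in the DNMT1 siRNA replicates. The groups did not overlap, and replicate 3 of negative siRNA held more than either of the other control cultures. The group means (± SD, n = 3 each) were 3563 ± 2018 and 1491 ± 190, and the fitted log2 fold change was -1.26 (SE 0.33, edgeR FDR = 0.045). H2-D1 (ENSMUSG00000073411, chromosome 17, 35262730 to 35267499, plus strand), the D heavy chain, had 4144, 3210 and 9407 with negative siRNA and 1955, 1650 and 2041 with DNMT1 siRNA. The pattern over cultures was that of H2-K1, with negative siRNA replicate 3 again on top. The means were 5587 ± 3341 and 1882 ± 206, with a log2 fold change of -1.57 (SE 0.36, edgeR FDR = 0.0277). Heavy chain genes share sequence, so that some of their reads could be misplaced. In the reference transcripts, 1.12% of the 75-base stretches of H2-K1 and 6.33% of those of H2-D1 also occur in another annotated gene. The haplotypes of these cultures are not known, so the share of reads misplaced or lost could differ from these values and was not measured.

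B2m (ENSMUSG00000060802, chromosome 2, 122147686 to 122153083, plus strand) encodes the light chain that every class I heavy chain needs to reach the surface. Its normalized counts were 13640, 8483 and 16583 with negative siRNA and 8201, 7196 and 8635 with DNMT1 siRNA. Negative siRNA replicate 2 lay within the range of the DNMT1 siRNA cultures. The log2 fold change of -0.69 (SE 0.21) did not pass (edgeR FDR = 0.0698). Without negative siRNA replicate 2 it was -0.92 (SE 0.10, edgeR FDR = 0.000499), and without replicate 3 it was -0.47 (SE 0.19, edgeR FDR = 0.144). Within each culture, the log2 ratio of H2-D1 to B2m was -1.31 ± 0.46 in the controls and -2.09 ± 0.03 after DNMT1 siRNA (SD, n = 3 each, no overlap). That of H2-K1 to B2m was -1.94 ± 0.48 and -2.43 ± 0.05, with overlap, and its difference of -0.49 was -0.74 without negative siRNA replicate 1 and -0.26 without replicate 3. The H2-D1 difference of -0.78 was -0.53 without replicate 3. The exact two-sided permutation p was 0.1 for H2-D1, the smallest that 3 against 3 allows, and 0.3 for H2-K1 (0.12 and 0.3 after Benjamini-Hochberg adjustment over 6 ratios, which were chosen after the values were seen).

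Tap1 and Tap2 encode the paired subunits of the transporter, and Tapbp encodes tapasin, which holds the empty class I molecule at it. Tap1 (ENSMUSG00000037321, chromosome 17, 34187553 to 34197225) had normalized counts of 836, 573 and 1356 with negative siRNA and 394, 347 and 481 with DNMT1 siRNA. All DNMT1 siRNA cultures lay below the lowest control. The log2 fold change was -1.18 (SE 0.29, edgeR FDR = 0.0349). Tap2 (chromosome 17, 34203527 to 34216321) had 262, 221 and 465 against 193, 195 and 186. Here too the groups did not overlap, but the gap to the lower 2 controls was small. The log2 fold change of -0.72 (SE 0.26) did not pass (edgeR FDR = 0.113). Tapbp (chromosome 17, 33915899 to 33929292) had 4290, 3109 and 5468 against 3169, 2732 and 3013, with overlap, and a log2 fold change of -0.53 (SE 0.18, edgeR FDR = 0.0906) that did not pass. Within cultures the log2 ratio of Tap1 to Tap2 was 1.53 ± 0.15 in the controls and 1.08 ± 0.27 after DNMT1 siRNA. That of Tap1 to Tapbp was -2.27 ± 0.23 and -2.88 ± 0.20. Both ratios were lower in every DNMT1 siRNA culture (exact permutation p = 0.1 each, adjusted p = 0.12 over the 6 ratios). The counts hold no strand, since the library kit does not mark it, so genes that share exon bases with other annotated genes can have incomplete counts. The shared part was 29% in Tapbp, 18.5% in Tap2, 14.7% in Psmb8, 5.79% in Psmb9 and 3.87% in Tap1. Reads in more than 1 gene, which are not counted, made up 3.58% to 3.65% with negative siRNA and 6.02% to 6.35% with DNMT1 siRNA. The part of these reads in the class I values was not tested.

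The immunoproteasome subunits replace constitutive subunits of the proteasome core and change which peptides it makes. Psmb8 (ENSMUSG00000024338, chromosome 17, 34197721 to 34201454) showed the largest fold change of the 10 genes. Its normalized counts were 134, 77.9 and 246 with negative siRNA and 26.8, 23.3 and 42.5 with DNMT1 siRNA. The groups were well apart, although the DNMT1 siRNA values rest on few reads, 16 and 26 in replicates 2 and 3. The means were 153 ± 85.4 and 30.9 ± 10.2, with a log2 fold change of -2.31 (SE 0.45, edgeR FDR = 0.0165). Psmb9 (chromosome 17, 34181987 to 34187764), which shares a start region with Tap1 on the opposite strand, 211 bases between the annotated starts, rested on few reads, with 6 and 12 in DNMT1 siRNA replicates 2 and 3. It had 32.7, 27.6 and 80.1 against 13.4, 8.75 and 19.6, without overlap, and a log2 fold change of -1.74 (SE 0.51) that did not pass (edgeR FDR = 0.0617). Psmb10 (chromosome 8, 105935735 to 105938444) had the smallest fold change of the 10, with 396, 307 and 424 against 260, 292 and 293 and a log2 fold change of -0.42 (SE 0.14, edgeR FDR = 0.0895).

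Each immunosubunit was set against the constitutive subunit it replaces, as its share of the pair's level per exon length. Psmb8 made up 12.3%, 6.17% and 19.1% of the sum of Psmb8 and Psmb5 in the negative siRNA cultures and 2.87%, 2.39% and 4.87% in the DNMT1 siRNA cultures. Every DNMT1 siRNA culture lay below every control. The difference of means was -9.15 percentage points (exact two-sided permutation test, p = 0.1, the smallest possible; adjusted p = 0.3 over 3 pairs). It was -12.3 without negative siRNA replicate 2 and -5.86 without replicate 3. In raw counts, without division by length, the Psmb8 shares were 34.5%, 19.8% and 47% in the controls and 10%, 8.42% and 16.1% with DNMT1 siRNA. The size of the share thus depends on the scaling, and the shares that follow are per exon length. Psmb9 made up 2.3% ± 1.64 and 0.881% ± 0.395 of its pair with Psmb6 (SD, n = 3 each, exact permutation p = 0.2), with overlap, and the difference of -1.42 percentage points was -0.473 without negative siRNA replicate 3. Psmb10 made up 36.3% ± 5.57 and 33.8% ± 3.49 of its pair with Psmb7 (exact permutation p = 0.5), and the difference of -2.5 percentage points became 0.3 without negative siRNA replicate 3. The log2 ratio of Psmb8 to Psmb10 went from -1.44 ± 0.60 to -3.24 ± 0.43, without overlap (exact permutation p = 0.1, adjusted p = 0.12 over the 6 ratios). The partners themselves had log2 fold changes of -0.24 (Psmb5, SE 0.12), -0.39 (Psmb6, SE 0.11) and -0.25 (Psmb7, SE 0.10), and none passed both limits.

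**Figure D2:**
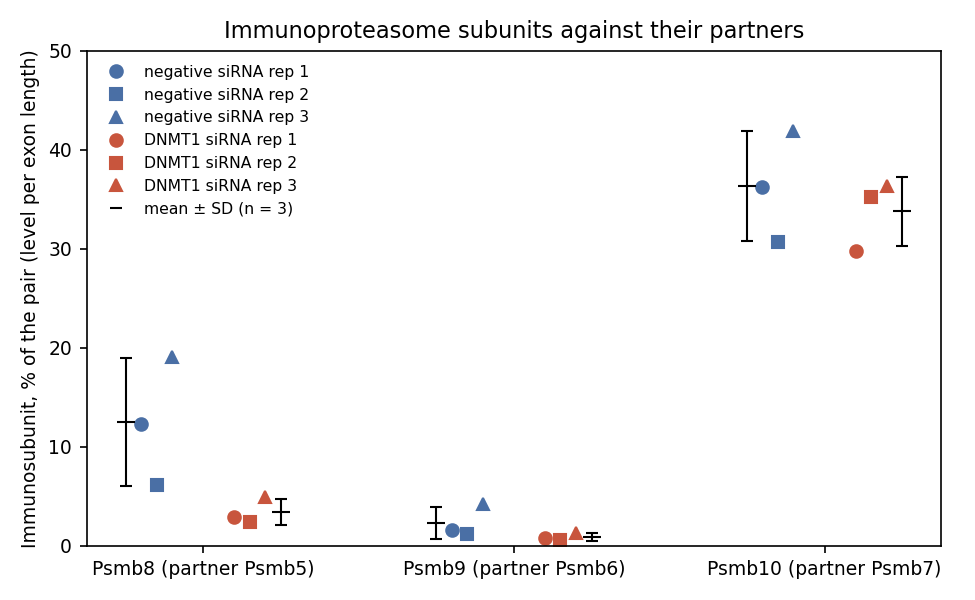
Share of each immunoproteasome subunit in the summed level per exon length of the subunit and the constitutive partner it replaces, in percent, for each culture, with the mean and SD of 3 as black bars. The Psmb8 share lies between 2.39% and 4.87% in the DNMT1 siRNA cultures and between 6.17% and 19.1% in the controls, while the Psmb10 shares of the groups overlap.

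Nlrc5 (ENSMUSG00000074151, chromosome 8, 94434356 to 94527272) encodes the transactivator of class I genes and had the widest spread between controls of the 10 genes, relative to its mean. Its normalized counts were 131, 18.6 and 222 with negative siRNA and 45.6, 36.4 and 49.1 with DNMT1 siRNA. Negative siRNA replicate 2 lay below all 5 other cultures, at 10.6% of the mean of the other two controls, while the DNMT1 siRNA cultures lay close together. The log2 fold change of -1.50 (SE 0.72) did not pass (edgeR FDR = 0.21). Without negative siRNA replicate 2 it was -2.00 (SE 0.26, edgeR FDR = 0.00135), and without replicate 3 it was -0.79 (SE 0.69, edgeR FDR = 0.478).

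Expressed as RPKM, which divides counts by exon length and library size, the level of B2m was the highest of the 10 with negative siRNA, 691 ± 220 (SD, n = 3 each). H2-D1 (99.8 ± 59.7), H2-K1 (55.9 ± 31.6) and Tapbp (54.4 ± 15) followed and could not be ordered within their spread. Psmb10 (10.1 ± 1.65) and Tap1 (7.75 ± 3.35) came next, then Tap2 (3.85 ± 1.59) and Psmb8 (2.08 ± 1.16). Nlrc5 (0.671 ± 0.551) and Psmb9 (0.589 ± 0.364) were lowest and did not differ beyond their spread. With DNMT1 siRNA, Tapbp (37.7 ± 2.81) and H2-D1 (33.6 ± 3.67) stood beside each other, and H2-K1 (23.4 ± 2.99) lay under both.

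The spread between controls bore on every gene. Negative siRNA replicate 2 was the lowest of the 3 controls in 10 of 10 genes, as it was in 35% of all tested genes, and it lay under 75% of the mean of the other two in 10 of 10, as in 10.4% of all. Negative siRNA replicate 3 was the highest of the controls in 10 of 10 genes, as in 31.6% of all. Leaving out replicate 2 raised the number of genes called lower from 4 to 9, all but Psmb10, with 2.78% of all tested genes called lower in that fit, and the median log2 fold change was -1.46. Leaving out replicate 3 kept H2-K1, H2-D1, Tap1 and Psmb8 called but with a median of -0.74, and the log2 fold change of H2-K1 was then -0.69 (SE 0.11, edgeR FDR = 0.0134) and that of H2-D1 was -0.97 (SE 0.13, edgeR FDR = 0.00823). The same 4 genes were called without replicate 1. The background of genes called lower was 3.1% without replicate 1 and 2.27% without replicate 3. When DNMT1 siRNA replicate 1, 2 or 3 was dropped, 0 of 10 genes were called, with 0.884%, 0.688% and 0.893% of all tested genes called lower in those 3 fits. The log2 fold changes were then -1.16 to -1.35 for H2-K1, -1.49 to -1.65 for H2-D1, -1.08 to -1.33 for Tap1 and -2.15 to -2.61 for Psmb8, with edgeR FDR between 0.0503 and 0.177. The directions of the 4 genes held in all 6 fits, whereas the calls needed all 3 DNMT1 siRNA cultures.

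**Figure D3:**
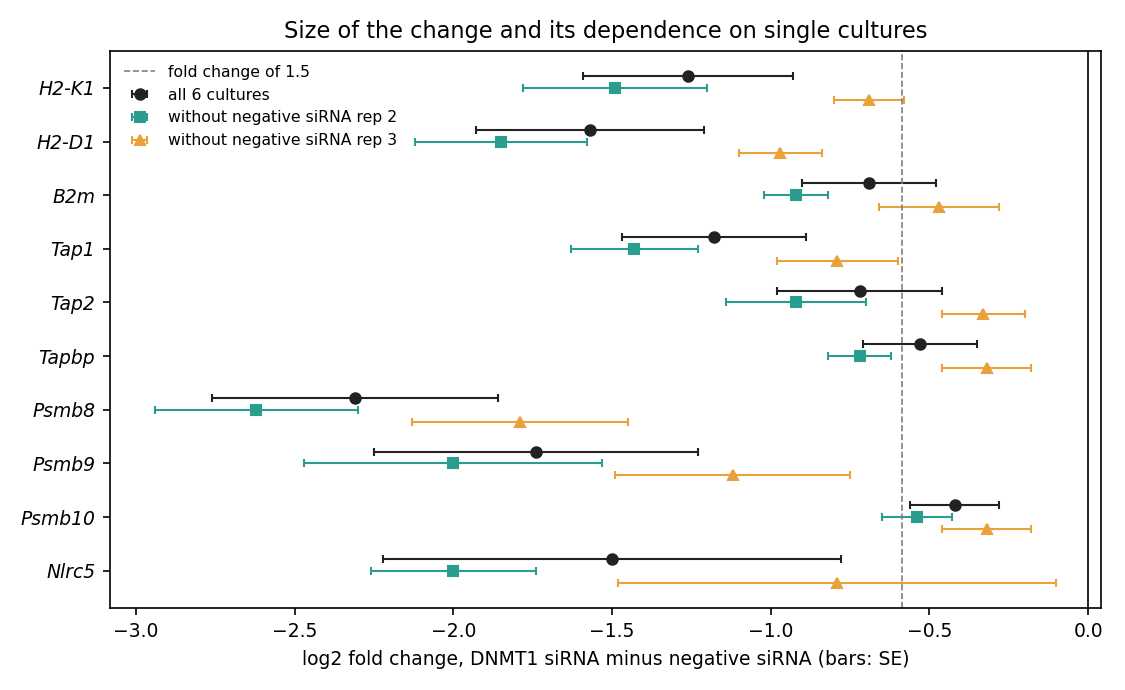
log2 fold change (DNMT1 siRNA minus negative siRNA) with its SE for each of the 10 genes, from all 6 cultures (black), without negative siRNA replicate 2 (green) and without replicate 3 (orange), with a dashed line at a fold change of 1.5. Every point lies below 0. Those without replicate 2 lie farther from 0 than those of all cultures, and those without replicate 3 lie nearer to 0.

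Of the 14 other class I chains listed, which include minor, non-polymorphic and CD1 or MR1 type molecules, 11 had enough reads to be tested. H2-Q4 was down-regulated, with normalized counts of 766, 439 and 862 with negative siRNA and 357, 315 and 348 with DNMT1 siRNA (log2 fold change -1.02, SE 0.23, edgeR FDR = 0.0258). None was up-regulated, and the median log2 fold change of the list was -0.55. H2-T23, the mouse Qa-1 molecule that presents leader peptides of other class I chains to NK cell receptors, had 141, 102 and 45.9 against 68.4, 74.3 and 94.9 (log2 fold change -0.30, edgeR FDR = 0.637). Negative siRNA replicate 3, the highest control for H2-K1, was the lowest for H2-T23. These genes resemble each other, and 21.7% of the 75-base stretches of H2-Q4 and 13.1% of those of H2-T23 occur in other genes, so their separate values are uncertain.

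Genes that act in the same route without being part of the 10 mostly stayed under the limits. Of 7 loading and trimming genes, 0 were called and the median log2 fold change was 0.12. Lnpep, named after its values were seen, was higher below the fold limit (0.38, SE 0.06, edgeR FDR = 0.00796). Calreticulin (Calr) and Pdia3, the lectin chaperone and the disulfide isomerase of the loading complex, had 0.20 (SE 0.08) and -0.05 (SE 0.08). Erap1, which trims peptides in the endoplasmic reticulum, had -0.18 (SE 0.20). Of 14 constitutive proteasome subunits, 0 were called, with a median of -0.27. Lower under an FDR of 0.05 but below the fold limit were 5 (Psmb4, Psmb6, Psma5, Psma6 and Psma7, named after their values were seen). Over all tested genes, 5.65% were lower under that FDR at any fold. In 8 of the 14, each DNMT1 siRNA culture lay below each control, against 17.7% of all tested genes. Of 5 activator and assembly genes, 0 were called. Psme1, a subunit of the interferon-inducible PA28 cap, had -0.34 (SE 0.08, edgeR FDR = 0.0321) with a fold change under 1.5, and its partner Psme2 had -0.25 (SE 0.15).

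Among 16 regulators of class I genes, Irf7 was called lower, and the median of the list was -0.01. The list joins promoter-complex genes with interferon and NF-kB factors. Of these factors, Stat2 (-0.76, SE 0.29, edgeR FDR = 0.126) and Irf9 (-0.46, SE 0.16, edgeR FDR = 0.0954) were lower but not called. Irf2 had 0.13, Nfkb1 0.07 and Rela -0.03, all 5 named after their values were seen. Irf7, a factor that amplifies interferon responses, had normalized counts of 1397, 465 and 2242 with negative siRNA and 347, 372 and 492 with DNMT1 siRNA. The groups overlapped through negative siRNA replicate 2 (log2 fold change -1.76, SE 0.48, edgeR FDR = 0.0483). Irf1, which binds class I promoters, had 442, 389 and 493 against 429, 424 and 494, with a log2 fold change of 0.02 (SE 0.12). Ifng had 0 reads in every culture and Ifnb1 had 1 read in a single control culture, so neither ligand could be tested. Of the 8 tested interferon receptor and signalling genes, 0 were called. Ifngr2 was higher (log2 fold change 0.52, SE 0.06, edgeR FDR = 0.00233) and Jak2 lower (-0.40, SE 0.11, edgeR FDR = 0.0447). Both lay below the fold limit and were named after their values were seen.

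A list of 20 other interferon-stimulated genes had a median log2 fold change of -1.23, near the -1.22 of the 10 class I genes. All 20 had a log2 fold change below 0, against 50.7% of all tested genes, and 5 were called lower, against 2.23%. These were Oas1a, an antiviral RNA sensor (log2 fold change -1.89, SE 0.44), Usp18, which removes ISG15 (-1.80, SE 0.43), the ubiquitin-like Isg15 (-1.54, SE 0.40), the GTPase Gbp2 (-1.19, SE 0.25) and the virion tether Bst2 (-1.06, SE 0.26), with edgeR FDR between 0.0207 and 0.0423. Isg15 was called although its groups overlapped, with 534 in negative siRNA replicate 2 and 553 in DNMT1 siRNA replicate 3. In 5 of the 20, each DNMT1 siRNA culture lay below each control, against 17.7% of all tested genes. Negative siRNA replicate 2 was the lowest control in 20 of 20 of the listed genes, against 35% of all tested genes. Replicate 3 was the highest in 19 of 20, against 31.6%. Gbp2 had 1218, 866 and 1785 with negative siRNA and 567, 462 and 662 with DNMT1 siRNA, the order of cultures seen in Tap1. The related lists, class II genes included, held 11, 7, 14, 5, 16, 8, 20 and 2 tested genes. Over all of them together, 7 genes were called lower, against 2.23% of all tested genes. This number was 4, 27 and 3 without negative siRNA replicates 1, 2 and 3, against 3.1%, 2.78% and 2.27% of all tested genes in those fits. It was 0 without any one of the DNMT1 siRNA cultures, against 0.884%, 0.688% and 0.893%.

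**Figure D4:**
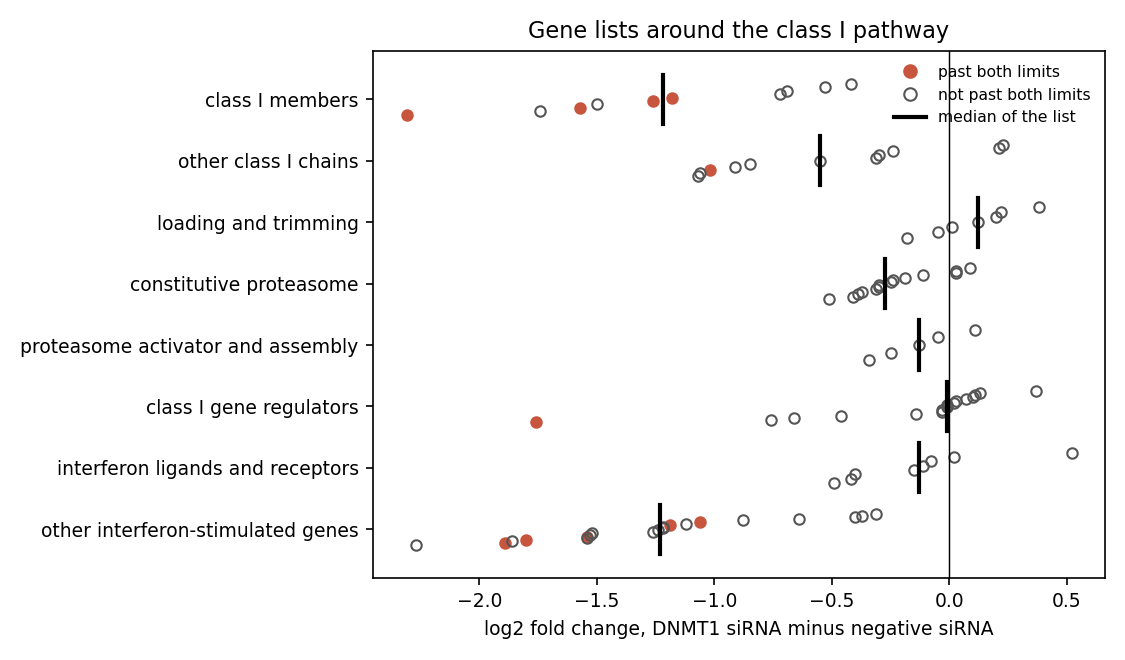
log2 fold change (DNMT1 siRNA minus negative siRNA) of each tested gene in the 10 class I members and 7 related lists, with filled points for genes past both limits and a bar at the median of each list. The medians of the members (-1.22) and of the other interferon-stimulated genes (-1.23) lie farthest to the left, and loading and trimming genes have a median of 0.12.

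Likeness of pattern was measured as the root mean square difference of mean-centred log2 CPM over the 6 cultures. The 5 genes outside the 10 that were most like H2-K1 were Apobec1 (0.13), H2-Q1 (0.19), Gbp2 (0.20), Ccl5 (0.21) and H2-T10 (0.23). Those most like Tap1 were Gbp2 (0.07), H2-Q1 (0.10), Bst2 (0.16), Lgals3bp (0.17) and Slc7a11 (0.17). Gbp2 and H2-Q1 were on both lists. Slc7a11, the cystine transporter, had normalized counts of 503, 295 and 562 with negative siRNA and 209, 195 and 260 with DNMT1 siRNA.

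**Figure D5:**
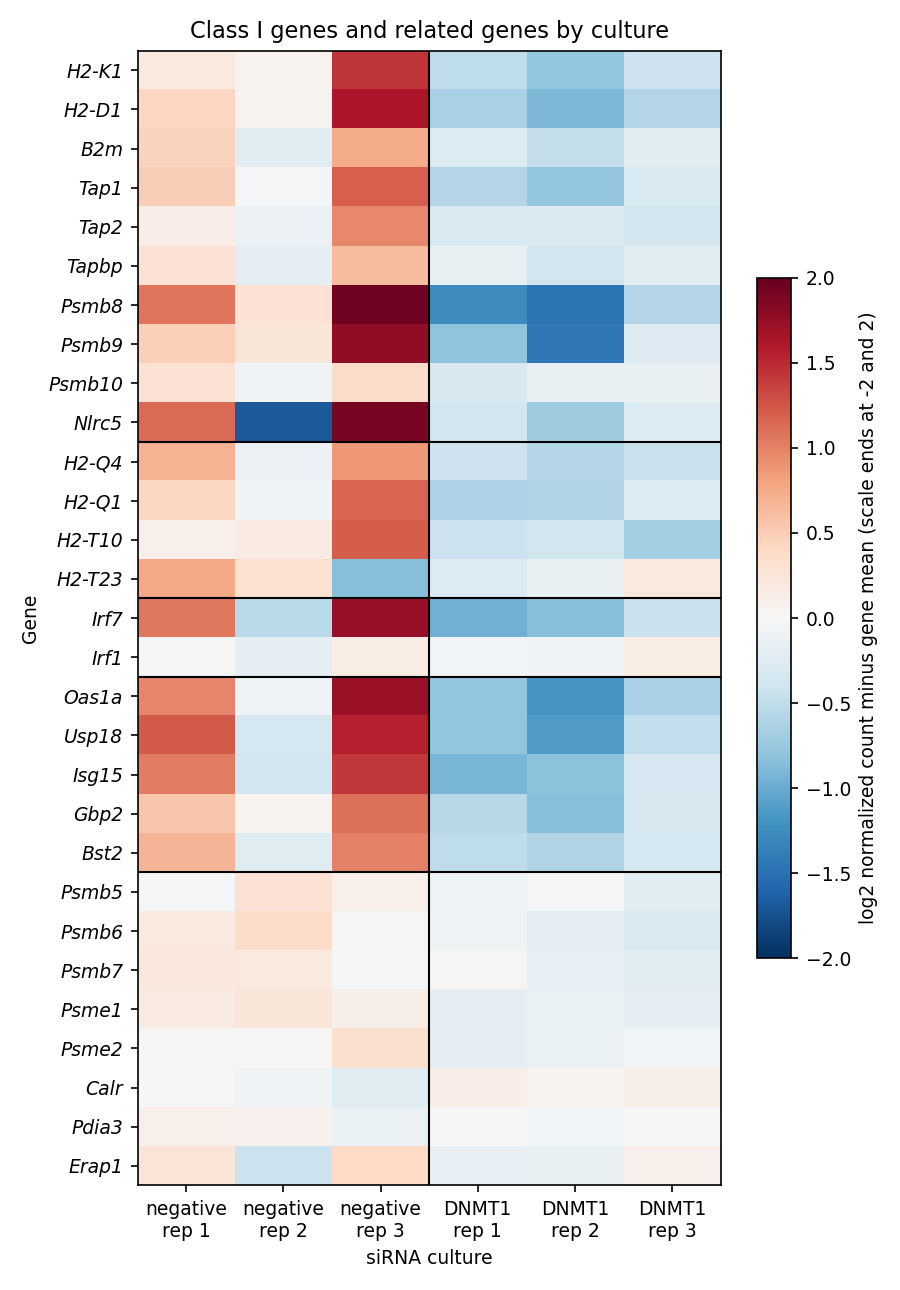
log2 normalized count minus the mean of the gene (colour, scale from -2 to 2) in each culture for the 10 class I genes and, below the lines, related heavy chains, regulators, other interferon-stimulated genes called lower, and proteasome and loading genes. Negative siRNA replicate 3 is the reddest column for each of the 10, and Psmb5, Psmb6, Psmb7, Calr and Pdia3 are pale in all 6 cultures.

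Of the 10 genes, 7 lie in the MHC region of chromosome 17, between 33915899 and 35267499. Of the 56 other tested genes in that interval, 1 was down-regulated (Tnxb, a matrix protein, log2 fold change -1.01) and 1 was up-regulated (Vwa7, log2 fold change 1.25), both named after their values were seen. Over all tested genes, 2.23% were called lower and 4.26% higher. The median log2 fold change of these 56 was -0.09, against -1.22 for all 10 members, inside and outside the interval. The interval was set by the outermost members, Tapbp and H2-D1, and does not span the whole MHC. H2-Q4, which was called lower (log2 fold change -1.02), and the other H2 chains listed above lie beyond its edge on chromosome 17. B2m on chromosome 2 and Psmb10 and Nlrc5 on chromosome 8 lie elsewhere.

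Of 7 listed class II genes, which professional antigen-presenting cells use, 2 could be tested. Ciita, the class II transactivator, was called higher on 3 to 11 reads per culture (normalized counts 4.08, 2.07 and 5.44 with negative siRNA and 13.4, 11.7 and 18 with DNMT1 siRNA, log2 fold change 1.86, SE 0.44, edgeR FDR = 0.0323). With so few reads Ciita passed the filter on low counts through the DNMT1 siRNA cultures alone, and it was not called with DESeq2 or with at least 10 counts required in every sample. The other tested gene, H2-DMa, a chaperone of class II loading, stood at 0.828 RPKM with negative siRNA and 0.969 RPKM with DNMT1 siRNA and had a log2 fold change of 0.23 (SE 0.28).

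Markers of cell types moved between the groups as well. Over all tested genes, 4.26% were called higher and 2.23% lower. Of 8 cardiomyocyte markers, 6 were called higher with DNMT1 siRNA, and their summed CPM ranged from 1862 to 2369 in the controls and from 4125 to 4975 with DNMT1 siRNA. Of 6 fibroblast markers, 3 were called lower, and the summed CPM went from a range of 35835 to 55436 to one of 27177 to 28998. Per length, Col1a1 stood at 3542 RPKM and Tnnt2 at 100 RPKM in the controls, so that collagen RNA was abundant in cells labelled as cardiomyocytes. Endothelial markers, of which 3 of 6 were called higher, went from a summed 69.5 to 89.6 CPM up to 185 to 193 CPM. Most of that rise came from Npr3 alone (333 to 2232 in mean normalized counts), named after its values were seen. Pecam1 (188 to 344) and Cdh5 (343 to 607), likewise, were not called, and their groups overlapped. Tek, likewise, had a log2 fold change of -0.35 (edgeR FDR = 0.0373). Epicardial markers, with 0 of 5 called, were between 1295 and 1484 CPM in all cultures. Of 6 smooth muscle and pericyte markers, 1 was called lower (5282 to 7887 CPM against 4400 to 4595 CPM). The 5 lymphoid markers had fewer than 10 reads each in every culture. Of 9 macrophage markers, 8 were tested and 1 was called lower (Lyz2). Their median log2 fold change was -0.93, and 7 of the 8 lay below 0, against 50.7% of all tested genes. The summed CPM of the 9 was 15.8, 41 and 41.8 in negative siRNA replicates 1 to 3 and 13.3 to 20.9 with DNMT1 siRNA. The part of these marker shifts in the class I results was not tested.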

How the data were processed

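Gene expression was measured by RNA-Seq (reads of 75 bases) in 3 negative siRNA and 3 DNMT1 siRNA cultures. Per the labels and the methods, the authors checked reads with FastQC, mapped them to mm10 with TopHat2 and counted them on Ensembl genes (GRCm38) with HTSeq. Tool versions are not given in the sources used here. The deposited values are raw read counts, without normalization. Reads outside annotated exons (14.6% to 31.95% of uniquely placed reads) and reads in more than 1 gene (3.58% to 6.35%) are separate totals in the same files and were left out of library sizes.

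Counts were tested in R 4.3.3 with edgeR 4.0.16 (quasi-likelihood F test, TMM normalization, filterByExpr with minimum count 10 and minimum total 15, no block) over 15470 genes. The SE of a log2 fold change was derived from its size and the F statistic. RPKM used union exon lengths of GENCODE M21 (GRCm38). Small comparisons used exact two-sided permutation tests (scipy 1.17.1). The smallest possible p is 0.1. DESeq2 1.42.0, RLE normalization, other filters, a replicate block, no fold limit and leaving out each culture were alternatives. The test was run on simulated counts with known changes. No pair of replicates agreed within sampling noise.

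The members and gene lists were chosen with earlier results of these data known. Named were all 10 members, up to 6 called genes of each related list with the largest changes, 13 genes given by name (among them Psmb5, Psme1, Irf1 and Dnmt1; 1 of the 13 is not reported here), and the 5 genes most like H2-K1 and Tap1. Replicate numbers were not treated as pairs: after group means were removed, cultures of the same number correlated at 0.01, -0.02 and 0.03. Samples were taken as DNMT1 siRNA from their titles, although a treatment tag names DNMT3a siRNA.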

Additional observations from a re-analysis of the deposited data

Results flagged for a closer look

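Outside the gene counts, uniquely placed reads that lay in no annotated exon made up a mean of 29.3% with DNMT1 siRNA, above the 16.4% of the negative siRNA cultures. They are outside the measurement used for the class I genes, and their part in the class I values was not tested.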

How the results depend on the processing

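Each of the 10 class I genes kept a negative log2 fold change in every fit made. The number called lower was 4 with RLE normalization, against 2.28% of all tested genes. With at least 10 counts in every sample it was 4 (9 genes tested, without Psmb9), against 2.27%. With DESeq2 it was 6 (H2-D1, B2m, Tap1, Tap2, Psmb8 and Psmb9, with H2-K1 at a DESeq2 adjusted p of 0.0525), against 3.13%. Without a filter it was 8, against 2.21%, with the smaller SEs given above. On leaving out 1 culture it was 0 to 9. Over all genes, the 345 lower and 659 higher calls became 701 and 994 without a filter, 874 and 1054 without a limit on fold change, and 112 to 472 and 255 to 823 on leaving out 1 culture. In the related lists, the 7 genes called lower became 13 with DESeq2, 25 without a filter and 14 without a fold limit. The shares of all tested genes called lower in those 3 settings were 3.13%, 2.21% and 5.65%. On leaving out 1 culture the number was 0 to 27. The single one called higher, Ciita, became 0 with DESeq2, with at least 10 counts in every sample and with the block. The number was 3 without a fold limit, with Ifngr2 and Lnpep added, and 0 to 1 on leaving out 1 culture. The Psmb8 share differed by -22.3 percentage points in raw counts, where the division by length was dropped. For the other changes the cause was not tested.

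Over all genes, cultures of the same replicate number did not resemble each other, by the correlations given above. In H2-K1, H2-D1, B2m, Tap1, Psmb8, Psmb9 and Nlrc5, however, replicate 3 was highest and replicate 2 lowest in both groups. Tap2, Tapbp and Psmb10 did not show that order with DNMT1 siRNA. Whether the cultures were handled as pairs is not given in the sources used here. With the number as a replicate block, 285 genes (1.84% of all tested genes) were called lower and 513 (3.32%) higher. In that fit 6 class I genes were called lower, with B2m (edgeR FDR = 0.0447) and Psmb9 (edgeR FDR = 0.028) added. Depth limits Psmb9, Psmb8 and Nlrc5 most.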
